A study of Mus musculus with 12 samples.

Results

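Hearts of mice given busulfan together with FMT of a control kind were compared with hearts of untreated controls, 3 libraries against 3, which are 6 of the 12 RNA-seq libraries of the series. The members were chosen by their labelled treatment alone, and all genes of the deposited table entered the comparison. All mice were of the outbred ICR stock and 10 weeks old, and the tissue was the heart. The label of the FMT group reads B+Con-FMT, taken here as busulfan plus FMT from a control source, and gives no dose of busulfan. It is called control-FMT below. A group given busulfan alone at 20 mg/kg was used for a direct comparison, and a group given busulfan with FMT of an AOS kind (AOS at 10 mg/kg in its label) entered the fit for its share of the estimate of spread. The series' design text puts the question as what FMT does in hearts that busulfan has damaged. The labels do not spell out FMT, an abbreviation commonly used for the transfer of gut microbes, and they do not say whether the numbered replicates are separate animals, so p-values measure only how these samples vary, and that variation may be partly technical.

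Busulfan is a chemotherapy drug that attaches to DNA and crosslinks its strands, and it is known above all for its toxicity to the blood-forming cells of the marrow. Damaged DNA stabilises the transcription factor p53, which switches on genes that stop the cell cycle, trigger cell death or dampen growth. The heart muscle is threaded by a dense capillary bed, in which endothelial cells and the pericytes around them share a basement membrane, and it holds macrophages that settle there before birth and others that descend from blood monocytes. These are background facts and not results of these data.

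Library totals of the 6 libraries ran from 11333650 to 12915596 estimated counts. Per length, in the authors' TPM values, the heart muscle genes Myh6 (6784 to 15031), Tnnt2 (9729 to 16174) and Myl2 (13104 to 30584) were abundant in all 12 libraries, as the labelled tissue requires. Markers of the atria varied far more, with Myl7 between 5.26 and 8227 TPM. Summed over the 17 atrial markers, the level was 2709, 21855 and 15646 CPM (counts scaled to a common library total with TMM factors) in control replicates 1 to 3 and 1510, 1212 and 5227 CPM in the control-FMT replicates. All genes tested were also fitted with an atrial score as a covariate, and the values of that fit are given below for some results only. The score was built from Sln, Myl4, Myl7 and Bmp10 alone, not from all 17 markers. Control-FMT replicate 2 stood apart in macrophage and lymphocyte genes, as given below. In bulk tissue, fewer cells of a type and less RNA per cell cannot be told apart.

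Over 13493 genes, edgeR's quasi-likelihood test called 0 genes (0% of those tested) between control-FMT and control at a Benjamini-Hochberg adjusted p under 0.05. The smallest adjusted p was 0.0512, shared by Ccnd1, Papln, Ttyh3 and Ifi27. An unadjusted p under 0.05 was reached by 1110 genes (8.23%), of which 604 were higher (4.48%) and 506 lower (3.75%) in control-FMT, and 47.4% of all genes had a log2 fold change above 0 and 52.6% below. The 3 libraries of each group did not overlap for 966 higher genes (7.16%) and 634 lower genes (4.7%). By DESeq2, 62 genes were called as higher (0.459%) and 30 as lower (0.222%), while limma-voom made 0 calls. The count by edgeR depended on single libraries, some of them of the AOS-FMT group, which shares the fit but not the comparison: without AOS-FMT replicate 2 it was 7 genes (Ccnd1, Papln, Dpep1, Sez6l2, Ttyh3, Ifi27 and Rhbdf2), without AOS-FMT replicate 1 it was 1 (Papln), and without control-FMT replicate 3 it was 1 (Hmga1b). No gene of this comparison is therefore said to have risen or fallen, and the values are given as levels and differences. The plot of log2 fold change against p shows where the genes named here lie among all genes tested.

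**Figure D1:**
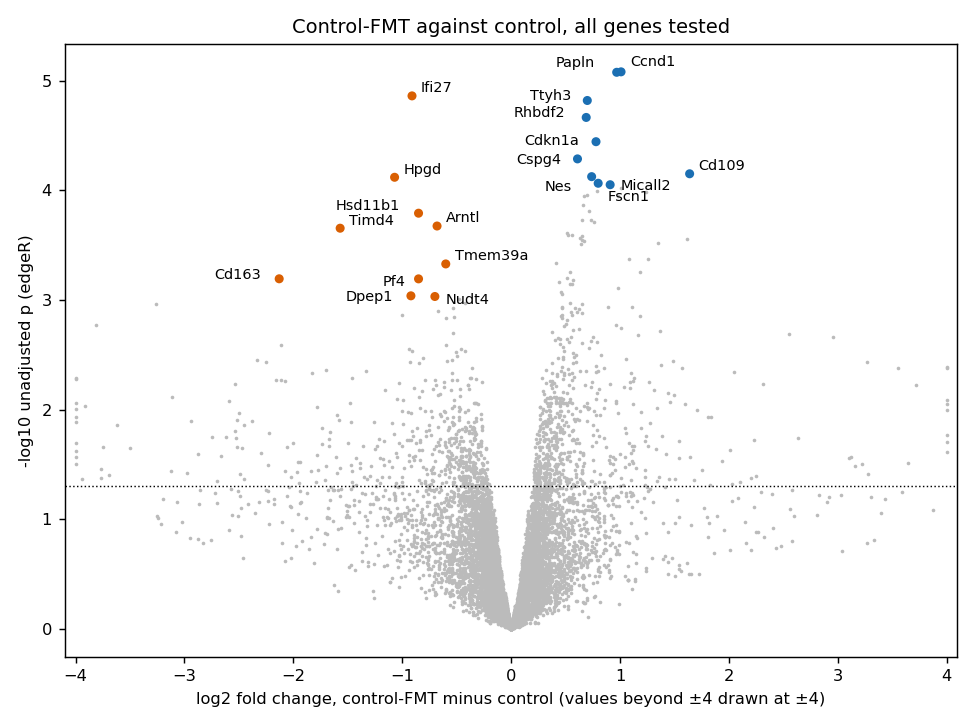
Each point is a gene, with its log2 fold change (control-FMT minus control) on the horizontal axis and −log10 of its unadjusted edgeR p on the vertical axis (dotted line, the unadjusted threshold). Blue and orange points are the 10 higher and 10 lower named genes with the smallest p, led by Ccnd1 at 1.01 and Ifi27 at −0.91.

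The smallest p on the higher side belonged to Ccnd1, Papln, Ttyh3, Rhbdf2 and Cdkn1a. The 10 genes named for the smallest p on each side were picked among those whose groups did not overlap. A lack of overlap in them is therefore no separate result. Ccnd1, which encodes cyclin D1, the partner of CDK4 and CDK6 in the passage from G1 to S phase, stood at 40.8, 41.3 and 32.8 CPM in the control libraries and at 83, 70.3 and 77.4 CPM in the control-FMT libraries. All 3 control-FMT libraries lay above all 3 controls, and the log2 fold change was 1.01 ± 0.14 (SE) with an edgeR adjusted p of 0.0512. Papln, which encodes papilin, a glycoprotein of the extracellular matrix, was at 14.3, 15.4 and 14.4 CPM in control and 30.8, 24.2 and 31.6 CPM in control-FMT. These groups were apart as well, with a log2 fold change of 0.97 ± 0.14 and an adjusted p of 0.0512 by edgeR. Ttyh3 was at 25 ± 2.44 CPM in control and 40.6 ± 0.777 CPM in control-FMT (SD, n = 3 each). Rhbdf2 encodes the inactive rhomboid iRhom2, which carries the protease ADAM17 to the cell surface, and its means were 14.9 ± 1.12 and 24.1 ± 1.23 CPM. Nes and Fscn1, which encode the intermediate filament protein nestin and the actin bundler fascin, had means of 52.1 and 57.5 CPM in control against 87.2 and 100 CPM in control-FMT. Micall2 was at 5.48 and 10.3 CPM. Cd109, a cell surface protein that binds TGF-beta, had the largest fold of the 10 genes on this side, at 2.31, 2.66 and 2.38 CPM in control and 5.33, 8.43 and 9.32 CPM in control-FMT (log2 fold change 1.64 ± 0.29).

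**Figure D2:**
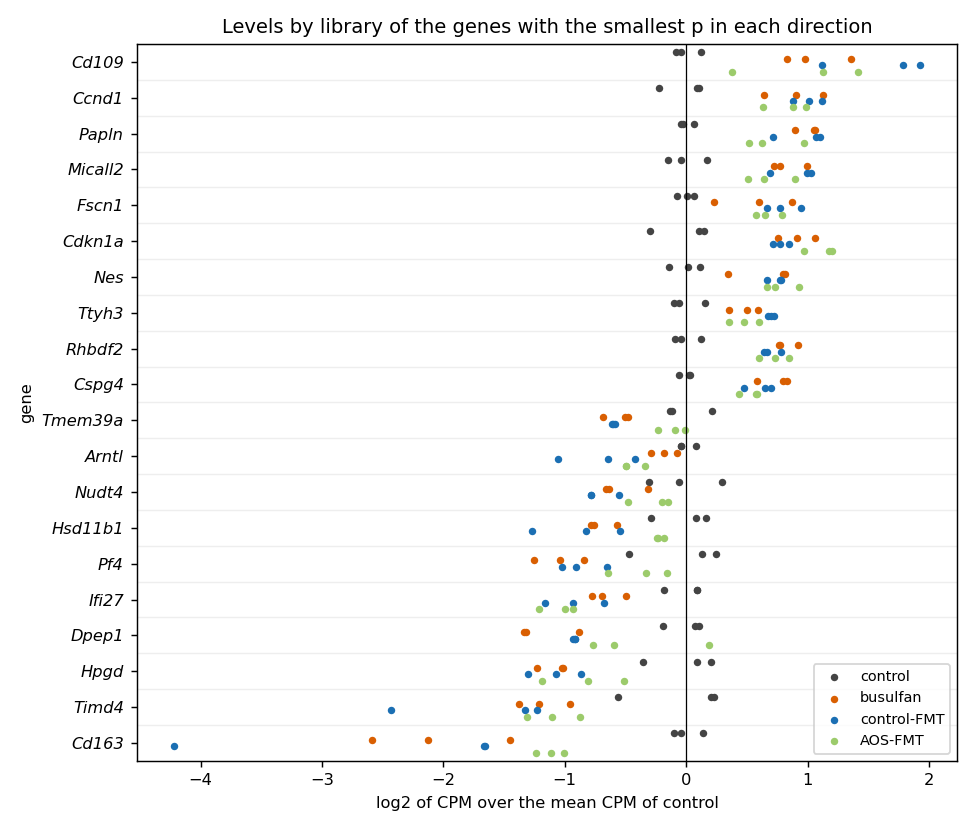
Points are the 12 libraries in 4 colours (control, busulfan, control-FMT, AOS-FMT) for the 20 named genes, on a scale of log2 CPM over the control mean (vertical line at 0). For these 20 genes, picked among those whose control and control-FMT libraries did not overlap, the blue points lie to 1 side of the dark points; the busulfan points lie on the same side of the control mean.

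Of the 44 p53 targets on the list, all were tested, 32 had a value above 0 and 12 below, and 13 were higher at an unadjusted p under 0.05 (0 lower), where 4.48% of all genes were higher and 3.75% lower. Their median log2 fold change was 0.13, against −0.012 over all genes. It was 0.21 without control replicate 1, 0.24 without control-FMT replicate 1 and 0.22 with the atrial score as a covariate. Cdkn1a encodes p21, the inhibitor of cyclin-dependent kinases through which p53 arrests the cycle. Its levels were 41.4, 42.7 and 31.3 CPM in control and 63.3, 65.7 and 69.2 CPM in control-FMT. The groups did not overlap, the log2 fold change was 0.78 ± 0.13, and the adjusted p by edgeR was 0.0812. Eda2r, a member of the TNF receptor family that p53 induces, was at 2.31, 3.42 and 3.25 CPM in control and 5.96, 6.22 and 9.23 CPM in control-FMT (1.24 ± 0.23). Gdf15, a circulating stress hormone of the TGF-beta family, stood at 3.19 ± 1.25 CPM in control and 7.63 ± 1.09 CPM in control-FMT (SD, n = 3). Zmat3, a zinc finger protein that binds RNA, was at 8.06 and 13.3 CPM on average, and Phlda3, which curbs the kinase AKT, at 13 and 26.9 CPM.

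Further targets with an unadjusted p under 0.05 act in different branches of the response: Trp53inp1 (log2 fold change 0.78), Sesn2, a sensor of leucine that restrains mTORC1 (0.81), Plk2 (0.49) and Bbc3, which encodes the killer protein PUMA (0.56). Other well-known targets did not share this pattern. Mdm2, which encodes the ligase that degrades p53, had libraries at 59.9, 66.1 and 58.3 CPM in control and 67.9, 67.7 and 63.5 CPM in control-FMT, with overlapping groups and a log2 fold change of 0.11 ± 0.1. Ccng1, which encodes cyclin G1, stood at −0.08 ± 0.14. The 31 tested genes of crosslink repair and the DNA damage checkpoint had a median of −0.03, with 1 higher and 0 lower at an unadjusted p under 0.05.

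Genes of S and M phase lay mostly above 0. Of 34 genes of S and M phase, 31 were above 0, against 47.4% of all genes. In 10 the groups did not overlap (all higher, against 7.16% of all genes). The median log2 fold change was 0.47, and it was 0.57 in busulfan minus control. At an unadjusted p under 0.05, 5 of the 34 were higher and 0 lower (4.48% and 3.75% of all genes). They were Plk1 and Kif20a, a kinase and a kinesin of mitosis, Mki67, the proliferation marker, Prc1, which bundles the spindle midzone, and Cdt1, which licenses replication origins. The summed level of the S and M phase genes overlapped, at 170 to 181 CPM in control and 179 to 235 CPM in control-FMT. The 15 tested G1 cyclins and kinase inhibitors, which include Ccnd1 and Cdkn1a, had a median of 0.03, with 11 above and 4 below 0. At that p, 2 were higher and 0 lower, against 4.48% and 3.75% of all genes. With the atrial score as a covariate this median was 0.19. Mki67 was at 10.4, 10.3 and 8.25 CPM in control and 15, 10.8 and 18.6 CPM in control-FMT. Every control-FMT library was above the controls, replicate 2 by the least, and the log2 fold change was 0.61 ± 0.21. Plk1 had a larger ratio (1.27 ± 0.38) at a level of 0.555 to 2.42 CPM.

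Busulfan alone against control gave 8 called genes in the same fit (0.0593% of those tested): Ccnd1, Papln, Rhbdf2, Cdkn1a, Cspg4, Zmat3, Sez6l2 and Pfkp. That comparison uses the same 3 control libraries, so the 2 sets of fold changes are not independent, and the direct contrast of control-FMT with busulfan is the test of a difference. All 8 genes had control-FMT libraries above all controls, against 7.16% of all genes. They were called as high against these same controls, so low control values favour this order, and it is a description. In control-FMT minus busulfan, Ccnd1 stood at 0.1 (95% interval −0.2 to 0.4), Papln at −0.03 (−0.32 to 0.26), and Cdkn1a at −0.14 (−0.41 to 0.14). For Rhbdf2 the difference was −0.13 (−0.35 to 0.1), for Cspg4 −0.13 (−0.35 to 0.09), for Zmat3 −0.19 (−0.49 to 0.11) and for Sez6l2 −0.15 (−0.53 to 0.23). Each of these 7 intervals includes 0, which does not show that the groups were alike. The 8 genes were picked for their high levels in these busulfan libraries, so their differences from busulfan lean below 0 by that choice and are a description. The interval left out 0 for Pfkp, the platelet-type isoform of phosphofructokinase, which commits sugar to glycolysis (adjusted p 0.999 by edgeR). Its libraries were at 73.9, 66.3 and 84.2 CPM in control, 143, 122 and 147 CPM in busulfan, and 107, 126 and 93.3 CPM in control-FMT. The control-FMT values lay between the other groups, overlapping busulfan through replicate 2, with a difference from busulfan of −0.34 (−0.61 to −0.06).

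**Figure D3:**
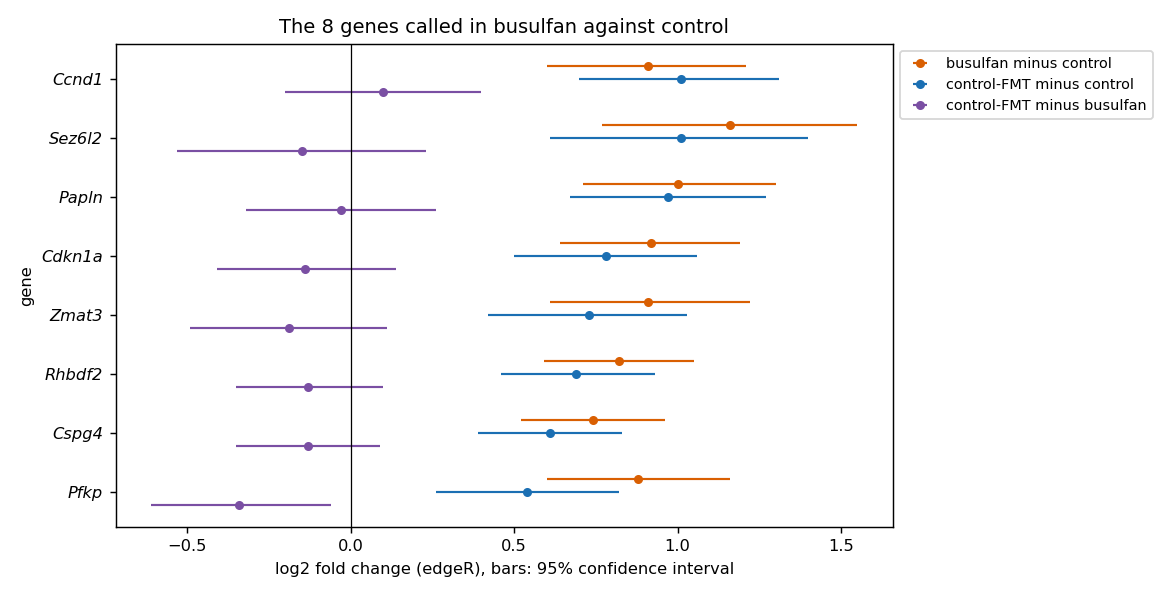
Log2 fold changes with 95% confidence intervals for the 8 genes called in busulfan against control, in 3 contrasts of the same edgeR fit. The orange and blue contrasts share the control libraries; in purple, the direct contrast, only the interval of Pfkp (−0.61 to −0.06) leaves out 0.

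Over all genes, the direct contrast of control-FMT with busulfan called 0 genes by edgeR (0%), with 358 (2.65%) at an unadjusted p under 0.05 (237 higher, 1.76%, and 121 lower, 0.897%). DESeq2 called 2 genes as higher (0.0148%), Bcl6 and Gm40525, and limma-voom 0. Bcl6, a transcriptional repressor of inflammatory and metabolic genes, was at 35, 30.7 and 36.4 CPM in control, 27.2, 24.2 and 28.8 CPM in busulfan and 49.6, 47.5 and 50 CPM in control-FMT. The control-FMT libraries lay above both other groups, by 0.88 ± 0.16 over busulfan (edgeR adjusted p 0.999, and 8.9e-05 unadjusted) and by 0.53 ± 0.16 over control. Fitted on the 6 libraries of that contrast alone, edgeR called Bcl6 and Stbd1. Stbd1, a glycogen-binding protein, was at 8.31, 9.41 and 9.15 CPM in control-FMT, 1.27 to 1.57 CPM in busulfan, and 1.54, 1.75 and 12.4 CPM in control, where replicate 3 exceeded every control-FMT library.

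Genes of the basement membrane and of mural cells lay mostly above 0. Of 19 basement membrane genes, 16 were above 0 and 7 were higher and 0 lower at an unadjusted p under 0.05 (4.48% and 3.75% of all genes), and the median log2 fold change was 0.23, or 0.37 without control-FMT replicate 2 and 0.45 with the atrial score as a covariate. Type IV collagen is the network-forming collagen of basement membranes, and its alpha-1 and alpha-2 chains are joined in 1 molecule. Their genes lie head to head on chromosome 8 and are transcribed in opposite directions from a shared promoter region. In the RefSeq promoter windows of GRCm38.p6 the start sites are 21 bases apart. The windows run from 250 bases before to 50 bases after each start and share 78 bases. For Col4a1 that start, 11312826, lies inside the RefSeq gene span, which reaches 11312889. The windows are shown because the pair had nearly the same difference. Capitals mark the GC box GGGCGG and the CCAAT box, letters CCAAT, each searched on both strands, with none overlapping. Col4a1 is at chr8:11312777-11313076 on the minus strand and Col4a2 at chr8:11312555-11312854 on the plus strand.
Col4a1: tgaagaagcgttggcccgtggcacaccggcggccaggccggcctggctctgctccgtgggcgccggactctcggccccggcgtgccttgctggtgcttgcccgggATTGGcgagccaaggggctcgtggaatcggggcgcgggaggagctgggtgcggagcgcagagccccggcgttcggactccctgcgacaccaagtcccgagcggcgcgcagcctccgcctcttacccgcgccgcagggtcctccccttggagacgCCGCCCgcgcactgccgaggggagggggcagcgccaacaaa
Col4a2: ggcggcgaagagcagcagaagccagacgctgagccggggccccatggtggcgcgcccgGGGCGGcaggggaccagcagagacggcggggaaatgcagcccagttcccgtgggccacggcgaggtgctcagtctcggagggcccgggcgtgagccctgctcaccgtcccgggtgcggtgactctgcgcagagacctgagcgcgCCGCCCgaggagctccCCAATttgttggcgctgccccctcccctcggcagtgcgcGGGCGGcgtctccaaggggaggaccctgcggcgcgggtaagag
The Col4a1 window held 1 GC box and 1 CCAAT box, and the Col4a2 window 3 and 1. The GC box of the Col4a1 window is the same site as the last GC box of the Col4a2 window, read on the opposite strand. Over 32851 windows of the same length, 35.7% held the GC box letters and 37.4% the CCAAT letters, so that these matches are common and only describe the windows.

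Col4a1 was at 719, 745 and 630 CPM in control and 1104, 1020 and 1202 CPM in control-FMT. Col4a2 was at 407, 456 and 339 CPM in control and 662, 607 and 715 CPM in control-FMT. For both chains every control-FMT library was above every control, with replicate 3 highest and replicate 2 lowest, and the log2 fold changes were 0.67 ± 0.14 and 0.72 ± 0.14, with adjusted p of 0.115 and 0.104 by edgeR. Hspg2, which encodes perlecan, the heparan sulfate proteoglycan of basement membranes, stood at 419 ± 60.3 CPM in control and 613 ± 22.3 CPM in control-FMT (SD, n = 3). Sparc (0.48 ± 0.16), Lama5, a laminin chain (0.41 ± 0.16), and Nid2, which links laminin and collagen IV (0.39 ± 0.16), also had an unadjusted p under 0.05.

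Of 19 pericyte and smooth muscle markers, 18 were above 0, with a median log2 fold change of 0.39. At an unadjusted p under 0.05, 8 were higher and 0 lower (4.48% and 3.75% of all genes). Their summed level overlapped, at 4199 to 5212 CPM in control and 4958 to 5465 CPM in control-FMT. Cspg4, which encodes the pericyte proteoglycan NG2, was at 21.7, 20.5 and 21.8 CPM in control and 29.6, 33.5 and 34.5 CPM in control-FMT. The log2 fold change was 0.61 ± 0.1, with an adjusted p of 0.0851 by edgeR. Mylk, the kinase that activates smooth muscle myosin, was at 24.7 ± 0.994 and 36.5 ± 4.1 CPM (SD, n = 3). Notch3, the receptor of mural cells, and Smtn, a smooth muscle actin-binding protein, had log2 fold changes of 0.39 and 0.28, and Pdgfrb, the receptor that recruits pericytes, 0.21.

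Endothelial markers went both ways. Of 19 tested, 5 were higher and 2 lower at an unadjusted p under 0.05 (4.48% and 3.75% of all genes). The median was 0.12 (0.29 without control replicate 1). Cdh5, which encodes the junction protein VE-cadherin, was at 230, 191 and 203 CPM in control and 322, 281 and 325 CPM in control-FMT (0.57 ± 0.13). Robo4 and Aplnr, receptors of endothelial guidance and of apelin, stood at 0.56 and 0.59, and the ligand Apln, a tip cell gene, at 0.98 ± 0.18 with an adjusted p of 0.0851 by edgeR. Bcl6b, a repressor expressed in endothelium, was at 0.76 ± 0.15. In contrast, Tek, the angiopoietin receptor TIE2, was at 82.8, 108 and 94.8 CPM in control and 74.7, 51.9 and 71.4 CPM in control-FMT, all below control (−0.53 ± 0.14). Emcn, the sialomucin of capillaries and veins, was lower by a like amount (−0.47 ± 0.15). The summed level of the endothelial markers was 2737 to 2874 CPM in control and 2476 to 2838 CPM in control-FMT, with overlapping ranges.

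In the matrix outside the basement membrane, 6 of 38 genes of the fibrillar collagens and matrix list were higher and 1 was lower at an unadjusted p under 0.05 (4.48% and 3.75% of all genes), and the median was 0.12, or 0.48 with the atrial score as a covariate. The gelatinase gene Mmp2 was at 129, 122 and 180 CPM in control and 201, 258 and 239 CPM in control-FMT (0.69 ± 0.2), and Col6a1, a chain of the microfibrillar collagen VI, stood at 0.33 ± 0.14. Col1a1, the main chain of scar collagen, had overlapping groups, 160, 315 and 250 CPM against 287, 420 and 371 CPM (0.57 ± 0.29). Among 18 fibroblast markers, 0 were higher and 4 lower at that p. They were Dpep1, a membrane dipeptidase, at 118, 142 and 145 CPM in control and 70.8, 71.7 and 71.6 CPM in control-FMT (−0.92 ± 0.21), Pdgfra (−0.53), Gsn, the actin-severing gelsolin (−0.78), and Dcn, the proteoglycan decorin (−0.55).

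The core clock genes showed opposed differences. The clock is a feedback loop in which BMAL1, encoded by Arntl, and CLOCK switch on their own repressors, the PER and CRY proteins, and also the nuclear receptors REV-ERB alpha and beta, encoded by Nr1d1 and Nr1d2, which in turn repress Arntl. Nr1d1 was at 38.5, 67.9 and 52 CPM in control and 129, 128 and 230 CPM in control-FMT. All control-FMT libraries exceeded the controls, replicate 3 most, and the log2 fold change was 1.62 ± 0.31 (edgeR adjusted p 0.115; 1.28 without control-FMT replicate 3). Nr1d2 was at 30.2, 38.1 and 39.6 CPM in control and 48, 51.4 and 87.4 CPM in control-FMT, with replicate 3 again highest (0.79 ± 0.21; 0.46 without that library). Arntl was at 43.7, 47.8 and 43.9 CPM in control and 33.6, 28.9 and 21.7 CPM in control-FMT, with replicate 3 lowest and no overlap (−0.68 ± 0.13, adjusted p 0.114 by edgeR).

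With the atrial score as a covariate, Nr1d1 stood at 2.29 (adjusted p 0.000731 by edgeR) and Nr1d2 at 1.22 (adjusted p 0.0396), and among the other alternatives run both were called by DESeq2 only. Of the other core genes, Cry1 (−0.58), Bhlhe40 (0.49) and Bhlhe41 (0.32) had an unadjusted p under 0.05, while Per1 (−0.2 ± 0.26), Per2 (0.15 ± 0.35), Per3 (0.33 ± 0.3), Clock (−0.14 ± 0.16) and Cry2 (−0.1 ± 0.11) did not. In all, 4 of 15 were higher and 3 lower at that p (4.48% and 3.75% of all genes). Dbp, a clock output factor, was at 19.9, 9.04 and 16.7 CPM in control and 23.2, 24.5 and 81.9 CPM in control-FMT, where replicate 3 carried most of the difference (1.51 ± 0.64). The hour at which hearts were taken is not given in the labels, and its part in these values was not tested. Against busulfan alone, Arntl was lower by −0.5 ± 0.14 on the log2 scale (unadjusted p 0.00252) and Nr1d1 differed by 0.55 ± 0.3.

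The Arntl window is shown for the sequence that REV-ERB receptors recognise. The RefSeq table of GRCm38.p6 lists 2 windows for Arntl, and the one with a match to any of 3 clock motifs is printed, chr7:113207261-113207560 on the plus strand. Capitals mark the core AGGTCA.
Arntl: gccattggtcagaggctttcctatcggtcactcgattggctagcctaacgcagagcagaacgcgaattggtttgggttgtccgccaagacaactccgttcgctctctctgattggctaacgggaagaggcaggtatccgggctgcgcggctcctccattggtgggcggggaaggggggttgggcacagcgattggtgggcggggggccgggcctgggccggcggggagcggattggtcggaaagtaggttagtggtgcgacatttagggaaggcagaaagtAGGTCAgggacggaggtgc
The core is present once, in 16.3% of all windows, and the E-box CACGTG (7.15% of windows) and the D-box TTANGTAA (2.32%) are not in these letters. The Nr1d1 window held none of the 3 motifs, which says only that the letters are not in this window. All were searched on both strands.

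**Figure D4:**
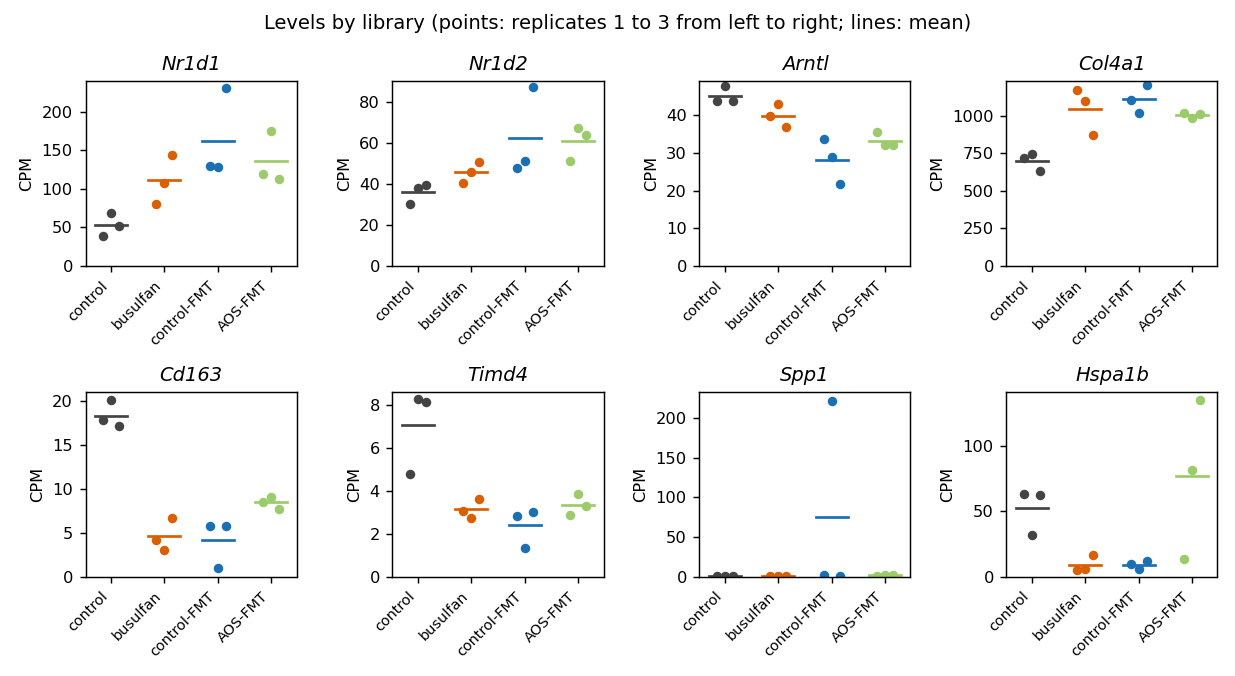
CPM in each of the 12 libraries (points) with group means (lines) for 8 genes. Nr1d1 and Nr1d2 lay higher and Arntl lower in all 3 control-FMT libraries than in control; the control-FMT mean of Spp1 comes from replicate 2 (222 CPM).

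Genes of resident macrophages, Cd163 and Timd4, had the largest differences of the 10 named genes on the lower side. Cd163, the receptor that takes up haemoglobin bound to haptoglobin, was at 17.8, 20.1 and 17.1 CPM in control and 5.8, 0.982 and 5.78 CPM in control-FMT. Replicate 2 of control-FMT was lowest, and the log2 fold change was −2.13 ± 0.45 (edgeR adjusted p 0.191), or −1.66 without that replicate. With the atrial score as a covariate the value was −1.62. In busulfan alone Cd163 was at 4.18, 3.05 and 6.68 CPM. Timd4, the phosphatidylserine receptor that marks self-renewing tissue macrophages, was at 4.79, 8.28 and 8.17 CPM in control and 2.82, 1.31 and 3.02 CPM in control-FMT (−1.57 ± 0.31). Folr2 (−0.81), Lyve1 (−1) and Pf4 (−0.85), which also mark this resident subset, and Ccl6, a chemokine of myeloid cells (−0.67), had groups that did not overlap. Cx3cr1, the fractalkine receptor of monocytes and macrophages, lay on the other side, at 12.8 to 13.2 CPM in control and 16.9 to 21.3 CPM in control-FMT (0.55 ± 0.15). Of 24 resident macrophage markers, 7 were above 0 and 17 below. Their summed level overlapped, at 809, 815 and 1072 CPM in control and 743, 1319 and 696 CPM in control-FMT. At an unadjusted p under 0.05, 2 were higher and 6 lower (4.48% and 3.75% of all genes).

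The higher pair were Spp1 and Gpnmb, genes of lipid-handling, scar-associated macrophages, and both rested on control-FMT replicate 2. Spp1, encoding osteopontin, was at 1.65, 222 and 1.29 CPM across the control-FMT replicates and 0.304 to 0.714 CPM in control. Gpnmb was at 1.41, 242 and 3.19 CPM, with the other libraries inside the control range or near it, and Cd68 at 28.9, 67.8 and 21.1 CPM. With the atrial score as a covariate, the log2 fold changes of Spp1, Gpnmb and Cd68 were 1.97, 1.79 and 0.18, against 7.26, 5.15 and 0.5 without it. Without replicate 2 the log2 fold change of Spp1 was 1.59, that of Gpnmb −0.01 and that of Cd68 −0.15. The same library had the highest summed level of T and NK cell markers of the 6 libraries compared (27.5 CPM, against 5.39 to 11 CPM in the other 5). Of these markers 7 were tested, all above 0, with a median of 1.23, or 0.42 without that library.

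MHC class II genes, through which dendritic cells, macrophages and B cells present peptides, were compared with control and with busulfan. All 10 tested were above 0 against control, with a median of 0.24, but 0 had an unadjusted p under 0.05. Cd74, the invariant chain, was at 271, 221 and 288 CPM in control, 190, 170 and 185 CPM in busulfan, and 302, 427 and 234 CPM in control-FMT. All control-FMT libraries were above busulfan (0.82 ± 0.19, unadjusted p 0.00101, adjusted p 0.999 by edgeR), and they overlapped control. H2-Ab1 had the same order, at 0.96 ± 0.24 over busulfan and 0.29 ± 0.24 over control, a value of −0.03 without control-FMT replicate 2. In control-FMT minus busulfan, 4 of the 10 were higher and 0 lower at an unadjusted p under 0.05 (1.76% and 0.897% of all genes), with a median of 0.76. The 2 contrasts differ by busulfan minus control, which the same fit holds. It was −0.52 ± 0.19 for Cd74 and −0.67 ± 0.24 for H2-Ab1 (adjusted p 0.356 and 0.35 by edgeR). The median of the 10 genes in busulfan minus control was −0.51.

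Interferon-stimulated genes were mostly below 0. Of 33 tested, 29 were below 0 (52.6% of all genes) and 9 were lower at an unadjusted p under 0.05 (3.75% of all genes; 0 higher), with a median of −0.33. Ifi27, a small mitochondrial and nuclear membrane protein induced by interferon, is not on this list but had the smallest p on the lower side. It was at 104, 104 and 86.3 CPM in control and 43.7, 51.3 and 61.3 CPM in control-FMT. Its groups did not overlap, which its choice required (−0.91 ± 0.14, adjusted p 0.0512 by edgeR). Isg15, the ubiquitin-like modifier, was at 12.2, 10.4 and 8.8 CPM in control and 5.57, 5.56 and 5.09 CPM in control-FMT, also without overlap (−0.95 ± 0.32). Ifi205, Ifi204 and Ifi27l2a stood at −1.16, −0.65 and −1.05. Of 19 genes of MHC class I and the immunoproteasome, 15 were below 0 and 1 was lower at that p, H2-T23 (−0.48), with a median of −0.24, or −0.08 with the liver score as a covariate.

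Of 25 complement genes, 1 was higher and 6 were lower at an unadjusted p under 0.05 (4.48% and 3.75% of all genes). The median of −0.3 became 0.05 with the atrial score as a covariate. C7, a subunit of the membrane attack complex, was at 71.6, 66.1 and 70.9 CPM in control and 41.5, 34.6 and 33.8 CPM in control-FMT. C6, its neighbour in the complex, was at 0.164 to 0.259 CPM in control-FMT and 0.685 to 1.74 CPM in control. Cfp, which encodes properdin, the stabiliser of the alternative pathway, stood at −0.72, and C5ar1, the receptor for the fragment C5a, was the higher gene at 0.78.

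Blood cell RNA varied between the control libraries. The 17 platelet markers summed to 89.9, 209 and 131 CPM in control and 79.8, 62.8 and 70 CPM in control-FMT, without overlap. Of the 11 tested, all were below 0 and 9 were lower at an unadjusted p under 0.05, against 3.75% of all genes. The median was −2.25, or −0.99 without control replicate 2 and −0.56 with the atrial score as a covariate. In busulfan minus control, which shares the controls, the median was −2.26. Pf4, platelet factor 4, which resident macrophages also express, was at 19.9, 32.7 and 30.3 CPM in control and 17.6, 13.6 and 14.7 CPM in control-FMT. Ppbp, a platelet chemokine, was at 1.63, 19.5 and 5.47 CPM against 1.65, 1.06 and 1.98 CPM, so that control replicate 1 lay inside the control-FMT range. All 18 erythroid markers were below 0 and 4 were lower at that p. Hba-a1, an alpha globin, ranged from 3108 to 12057 CPM in control and from 2835 to 5521 CPM in control-FMT, with overlapping groups (−0.83 ± 0.46).

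**Figure D5:**
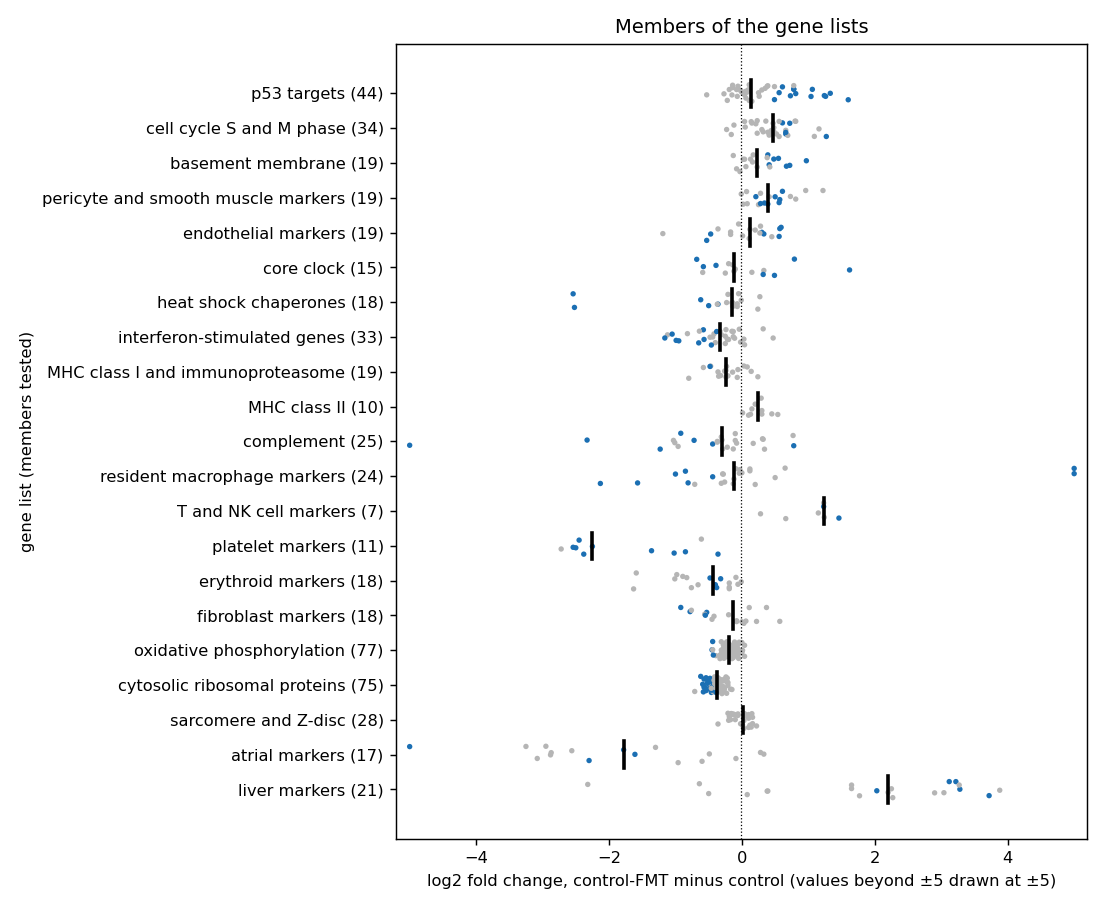
Each point is a tested gene of a list, at its log2 fold change (control-FMT minus control), blue at an unadjusted p under 0.05 and grey otherwise; bars are list medians and the dotted line is the median over all genes (−0.012). Cell cycle, basement membrane and mural cell members lie mostly right of 0, and interferon, platelet, erythroid and ribosomal members mostly left.

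The remaining named genes on the lower side included enzymes of lipid mediators and steroids. Hpgd, which inactivates prostaglandins, was at 18.9, 25.7 and 27.9 CPM in control and 13.3, 9.82 and 11.5 CPM in control-FMT (−1.07 ± 0.19, edgeR adjusted p 0.0851). Hsd11b1, which regenerates active glucocorticoid inside cells, was at 50.5, 37 and 47.8 CPM in control and 31, 18.7 and 25.5 CPM in control-FMT (−0.85 ± 0.16). Both genes were picked among those whose groups did not overlap. Nudt4, a hydrolase of diphosphoinositol polyphosphates, had means of 491 and 302 CPM, and Tmem39a of 15.6 and 10.3 CPM. Among 25 genes of the glucocorticoid response and metallothioneins, 2 were higher (Cdkn1a and Bcl6) and 5 lower at an unadjusted p under 0.05, against 4.48% and 3.75% of all genes, and the median was −0.01. The lower genes included Fkbp5, a classical target of the glucocorticoid receptor (−0.51 ± 0.14), and Tsc22d3, which encodes GILZ (−0.4 ± 0.14).

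The contractile genes showed no difference beyond the spread. Of 28 genes of the sarcomere and Z-disc, 15 were above and 13 below 0, 0 had an unadjusted p under 0.05, and the median was 0.02. Myh6 encodes alpha myosin, the motor of adult mouse heart muscle. It made up 3.7% to 5.27% of the counts in the 6 libraries, with a log2 fold change of 0.03 ± 0.18. Myh7, the beta chain that returns in stressed hearts, was at 0.1 ± 0.21. Nppb, which encodes the natriuretic peptide BNP, was at 234, 432 and 313 CPM in control and 213, 183 and 204 CPM in control-FMT, all below control (−0.71 ± 0.27, unadjusted p 0.023). Nppa, which encodes ANP and is most abundant in atria, was at 1434, 12084 and 8106 CPM in control and 458, 401 and 2821 CPM in control-FMT, with overlap through control replicate 1. Its log2 fold change was −2.56 ± 1.35 and became 0.42 with the atrial score as a covariate. Of 17 atrial markers, 15 were below 0, with a median of −1.78 and a range that overlapped in all but 1 gene, Bmp10, an atrial growth factor (4.19, 666 and 172 CPM in control and 0.0784, 0.245 and 0.604 CPM in control-FMT).

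Ribosomal protein genes were below 0 as a group, 75 of 75, with 24 lower at an unadjusted p under 0.05 (3.75% of all genes) and a median of −0.38. The spread sat within the controls: their summed level was 36344, 21201 and 35219 CPM in control replicates 1 to 3 and 23605 to 24246 CPM in control-FMT, so that control replicate 2 lay below every control-FMT library. Of 77 genes of oxidative phosphorylation, 74 were below 0, with a median of −0.19, and 3 were lower at that p, a share near the 3.75% of all genes. Their summed level overlapped, at 46592 to 75620 CPM in control and 53689 to 55941 CPM in control-FMT. Liver transcripts were low, and their summed level overlapped, at 68.7, 169 and 113 CPM in control and 143, 85.8 and 116 CPM in control-FMT. Alb was at 2.4, 1.14 and 0.555 CPM in control and 23.8, 6.55 and 8.8 CPM in control-FMT, without overlap. Of 21 liver markers, 18 were above 0 and 5 were higher at an unadjusted p under 0.05 (4.48% of all genes). The median was 2.2, or 1.29 without control-FMT replicate 1, and it was 1.87 in busulfan minus control. The source of these transcripts was not tested.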

How the data were processed

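RNA of 12 hearts' libraries was sequenced. The authors deposited estimated counts per gene, FPKM and TPM for each library, per the file headers; estimated counts were tested and TPM was used only to check the tissue. FPKM values were deposited by the authors and not used. Of the deposited estimated counts, 94.66% to 95.34% per library were whole within 1e-09. The submitters' processing notes name Bowtie 0.12.2 and mm10; how counts were made, with which annotation and strand setting, is not given in the sources used here. Positions and promoter windows are those of RefSeq for GRCm38.p6. All 4 genes searched matched the promoter table, and 17487 of 17536 gene IDs matched its gene table.

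Counts were rounded to whole numbers. filterByExpr kept 13493 genes, scaled by TMM (factors 0.908 to 1.08) and fitted over all 12 libraries by group with robust edgeR 4.0.16 in R 4.3.3. The coefficient of variation between replicates was estimated at 18.6%, and a log2 fold change had a median SE of 0.163. Calls required an adjusted p under 0.05 (Benjamini-Hochberg, all genes tested); intervals are 95%. DESeq2 1.42.0, limma-voom (limma 3.58.1), other scalings, filters, a replicate block, marker scores as covariates (mean log2 of CPM + 0.5) and fits without each library were alternatives. The edgeR fit was tested on simulated data.

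Named genes were the 10 per direction with the smallest p among those with non-overlapping groups and a mean of 5 CPM or more in the higher group, members of lists by smallest p, and a fixed set. A member of the core clock list is counted but not reported here. The comparison, lists and rule were chosen with earlier results of these data known. Named outside the rule after their values were seen were the clock genes except Arntl and Dbp, the endothelial markers, the p53 targets except Cdkn1a and Zmat3, Cdt1, Sparc, Lama5, Nid2, Pdgfrb, Pdgfra, Bcl6b, Apln, Mmp2, Col6a1, Gsn, Dcn, the macrophage genes except Cd163, Timd4 and Pf4, Ccl6, Cx3cr1, Stbd1, Gm40525, Fkbp5, Tsc22d3, Cyp2e1, Itih4, and all genes of the other observations except Atf3, Irs2 and Hp.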

Additional observations from a re-analysis of the deposited data

How the results depend on the processing

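Of 3173 log2 fold changes of 128 genes, the named ones and others of the same rule, under the alternatives, 3075 kept their direction and their side of the threshold, 76 came to pass it and 22 reversed. The count of 0 genes called between control-FMT and control was 2 with no scaling beyond library size and 2 with upper-quartile scaling, 3 without a filter, 5 with a filter at a mean of 5 CPM, 92 by DESeq2, and 4 with the atrial score as a covariate (Nr1d1, Nr1d2, Cyp2e1 and Itih4). It stayed at 0 with RLE factors, limma-voom, a non-robust fit, the 6 libraries alone, and the liver or erythroid score. Leaving out 1 library each gave 0 to 7. With the replicate number as a block it was 7 (Ccnd1, Papln, Ttyh3, Ifi27, Cd109, Cntf and Aldh3b3). The deviations of 9 of 18 same-numbered pairs correlated over 0.1 (range −0.151 to 0.468), 6 of 6 for number 1, 1 of 6 for number 2 and 2 of 6 for number 3, and 5 of 12 libraries correlated best with their own number, so the numbers were not taken as pairs. For control-FMT against busulfan, the count of 0 became 2 by DESeq2, 2 with the 6 libraries alone, and 0 to 1 leaving out 1 library each, and stayed 0 with the block. With the atrial score, the log2 fold change turned to −0.04 for H2-Ab1, 0.10 for Irs2, 0.42 for Nppa, −0.11 for Myh6, −0.09 for Myh7 and 0.07 for Per1. For Sln it was 0.25, but Sln is part of that score, so its value is drawn toward 0 by construction. With the erythroid score the log2 fold change was −0.08 for Myh6 and 0.00 for Myh7. Leaving out 1 library each gave −0.03 to 0.48 for H2-Ab1, −0.07 to 0.44 for Atf3, −0.33 to 0.18 for Irs2, −0.02 to 0.6 for Hp, −0.15 to 0.8 for Cd68, −0.01 to 5.72 for Gpnmb, −0.15 to 0.15 for Myh6, −0.04 to 0.38 for Myh7, −0.13 to 0.35 for Per2, −0.14 to 0.58 for Per3 and −0.3 to 0.09 for Clock. The causes were not tested. With 3 libraries a group and a median SE of 0.163, small differences could not be resolved.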

Other observations

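Heat shock genes, whose products refold damaged proteins, lay mostly below 0, 16 of 18 tested. At an unadjusted p under 0.05 by edgeR, 5 were lower and 0 higher (3.75% and 4.48% of all genes). Hspa1b, the inducible HSP70, was at 63.3, 32.1 and 62.5 CPM in control and 9.56, 5.81 and 12.2 CPM in control-FMT, groups that did not overlap (log2 fold change −2.52 ± 0.8). In busulfan alone Hspa1b was at 5.31, 5.86 and 16.2 CPM. Its neighbour Hspa1a, a near-identical copy between which counting can split reads, was at 19.7, 14.3 and 23.7 CPM against 2.74, 1.06 and 6.13 CPM. Hsp90aa1 was at 219, 223 and 217 CPM in control and 174, 163 and 178 CPM in control-FMT.

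Among 19 glutathione S-transferases, which conjugate electrophiles such as busulfan, 1 was higher and 5 lower at that p (4.48% and 3.75% of all genes). Gstm5 was at 64.5, 52.6 and 72.5 CPM in control and 45.8, 46 and 40.6 CPM in control-FMT (−0.52 ± 0.13). Gstp2, which has a close paralog, was at 4.71, 3.95 and 8.8 CPM against 13.8, 11.5 and 11.7 CPM (1.09 ± 0.32). Nos2, the inducible nitric oxide synthase, was at 8.3, 8.96 and 11.8 CPM in control and 13.8, 15.5 and 19.4 CPM in control-FMT. Hmga1b was at 0.171, 0.152 and 0.238 CPM in control and at 16.5, 24.9 and 0 CPM in control-FMT, so that its 3 libraries disagree. Atf3, Irs2 and Hp, which stood at 24.6 to 26.3, 49.6 to 100 and 5.79 to 12.5 CPM in AOS-FMT, were at 6.58 to 12.7, 14 to 16.1 and 3.21 to 7.16 CPM in control-FMT and overlapped control.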
